A study of Homo sapiens with 6 samples.

Results

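Granins are acidic proteins that fill the dense-core granules of neuroendocrine cells and neurons, and with them travel the enzymes that cut prohormones into active peptides. The genes described here are 7 granins and granin-like genes (CHGA, CHGB, SCG2, SCG3, SCG5, VGF and PCSK1N), the prohormone convertases PCSK1 and PCSK2, and the carboxypeptidase CPE. Chosen by symbol with earlier results of these data known, they are 10 of the 26372 genes in the deposited table. All 10 were found there. They were measured in SH-SY5Y, a human neuroblastoma line of sympathetic origin used as a model of neurons, which was purchased from ATCC. A lentiviral vector had brought in an shRNA, a hairpin that silences its target by RNA interference, directed at TDP-43 (shTDP-43; library titles shT2) or serving as control (shNC; library titles shNC3). Per the protocol, the stable knockdown cells were selected with puromycin and then kept in it, and for the control cells the protocol does not state it. Each arm has a single hairpin name in the titles, so effects of a hairpin or of a selected population cannot be told apart from loss of TDP-43. Each arm had 3 poly(A) RNA libraries. Nothing in the labels says that they came from separate cultures, so a p-value here covers only the spread among libraries, which may be technical.

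Dense-core granules form at the trans-Golgi network, where granins aggregate in acid and calcium and carry prohormones into the budding vesicle. Inside, convertases cleave prohormones after paired basic residues, CPE trims those residues off, and other enzymes modify the ends of the peptides. Granules are then moved, docked and released on a calcium signal. In sympathetic cells they also store noradrenaline and neuropeptides. TDP-43, the product of TARDBP, binds UG-rich RNA in the nucleus and controls splicing.

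Levels are given in FPKM, that is, fragments scaled by transcript length and by sequencing depth, so absolute depth is unknown. Relative to control library 1, the deepest, depth read from low values was 52.9% to 94.4% in the knockdown and 84.2% to 100% in the control. Knockdown libraries had 21.2 ± 0.598 FPKM of TARDBP, against 49.5 ± 1.49 FPKM in control libraries (SD, n = 3 each), a ratio of 0.428. Of 16 markers of the mesenchymal neuroblastoma state 14 fell and 1 rose, and their summed level was 969.9 to 986 FPKM in the knockdown libraries and 3817 to 3874 in the control libraries, with CAV1 and ANXA1 at 0 in every knockdown library. The marker that rose was TWIST1, with 294 ± 7.94 FPKM in the knockdown, against 111 ± 3.27 in the control. SNAI2 was not called (log2 fold change -0.04). By the test described below, 30.5% of all tested genes were called higher and 35.9% lower. Of 11 tested markers of the noradrenergic state 6 rose and 3 fell, and the sum over all 12 was 991.8 to 1094 FPKM in the knockdown against 591.7 to 600.8 in the control (2 rose and 8 fell with columns rescaled to equal sums). TH, the first enzyme of catecholamine synthesis, was listed at 0 in all 6 libraries. Of 10 Schwann and glial markers 3 passed the filter on low values and all 3 rose (2 with columns rescaled to equal sums, where S100B had an adjusted p of 0.511), with sums of 24.6 to 26.9 FPKM in the knockdown against 8.71 to 9.74 in the control. FOXD3 was at 0 in both groups and CDH19 in the knockdown. The part of these markers in the results was not tested.

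Promoters of 3 of the genes hold a full cyclic AMP response element (CRE), the site of CREB-family factors through which granule genes are known to respond to cyclic AMP. They are shown because CHGA had the largest log2 rise and VGF the second largest log2 fall, both among the 8 genes tested below, while PCSK1 was barely detected. RefSeq windows of 300 bases (250 before and 50 after the start site, GRCh38.p14) were found for 8 of the 10 genes, in 10 windows. CHGB and SCG2 had no entry. The CRE, TGACGTCA, which reads the same on both strands, is in capitals in the 3 sequences. They are CHGA at chr14:92922900-92923199 (plus strand), VGF at chr7:101165520-101165819 (minus strand) and the upstream start of PCSK1 at chr5:96433199-96433498 (minus strand).
CHGA: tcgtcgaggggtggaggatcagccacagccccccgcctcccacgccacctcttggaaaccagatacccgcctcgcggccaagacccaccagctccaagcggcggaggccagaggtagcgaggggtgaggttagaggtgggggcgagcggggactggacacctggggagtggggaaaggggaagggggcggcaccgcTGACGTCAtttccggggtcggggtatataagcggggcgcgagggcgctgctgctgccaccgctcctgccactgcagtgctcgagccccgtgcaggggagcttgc
VGF: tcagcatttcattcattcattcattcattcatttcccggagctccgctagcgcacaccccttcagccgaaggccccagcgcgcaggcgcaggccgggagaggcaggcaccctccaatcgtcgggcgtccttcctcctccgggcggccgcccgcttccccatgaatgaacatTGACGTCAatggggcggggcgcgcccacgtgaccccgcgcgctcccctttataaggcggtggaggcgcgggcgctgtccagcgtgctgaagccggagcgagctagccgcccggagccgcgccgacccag
PCSK1: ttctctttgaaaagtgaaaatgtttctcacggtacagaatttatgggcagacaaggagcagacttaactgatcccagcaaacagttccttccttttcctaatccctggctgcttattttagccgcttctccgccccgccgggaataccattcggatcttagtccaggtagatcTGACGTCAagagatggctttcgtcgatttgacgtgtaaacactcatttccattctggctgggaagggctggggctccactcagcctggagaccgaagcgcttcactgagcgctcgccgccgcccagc
The first base of the CRE lies at position -54 in CHGA, -79 in VGF and -77 in PCSK1, counted from the start site. Of all 35116 promoter windows from RefSeq, 1.85% hold this motif on either strand, and of 14538 windows of the tested genes 2.87% do. The shorter core TGACG, which every CRE holds on both strands, was found in 8 of the 10 windows (7 genes) on either strand, against 24.6% of all windows and 31.5% of windows of tested genes. The Sp1 box GGGCGG was found in 8 of the 10 windows (7 genes) on either strand, against 45% of all windows and 65.3% of windows of tested genes. A match is a description of the letters and no evidence of binding. CHGA and VGF, which share the CRE, moved in opposite directions, and the part of the CRE in either change was not tested.

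Knockdown cells held far more CHGA and far less SCG2 and VGF than control cells, and the remaining members were also split. A filter that kept genes averaging at least 1 FPKM across all 6 libraries left 8 of the 10 genes, and PCSK1 and PCSK2 lay under it. By limma on log2(FPKM + 1), with Benjamini-Hochberg adjustment over 13434 genes and a threshold of 0.05, CHGA, CHGB, SCG3, PCSK1N and CPE rose and SCG2, VGF and SCG5 fell. Such calls were common, with 66.3% of all tested genes called, 30.5% higher and 35.9% lower, so the number of called members says little by itself. For all 10 members the groups' libraries did not overlap, 6 with the knockdown above and 4 with it below. The same held for 70.8% of all tested genes, 32.5% with the knockdown above and 38.2% below. The sizes were larger than most. A change of at least 1 log2 unit was seen in 6 of the 8 tested members and in 11.3% of all tested genes. The median absolute log2 fold change was 1.43 over the members and 0.312 over all tested genes. This is a description only, since the members were chosen with earlier results known and the scale understates changes of low genes. The signed median was 1.00 over the members and -0.02 over all genes. With 5 members up and 3 down, it describes no common shift. In bulk RNA fewer cells of a type and less RNA per cell cannot be told apart.

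**Figure D1:**
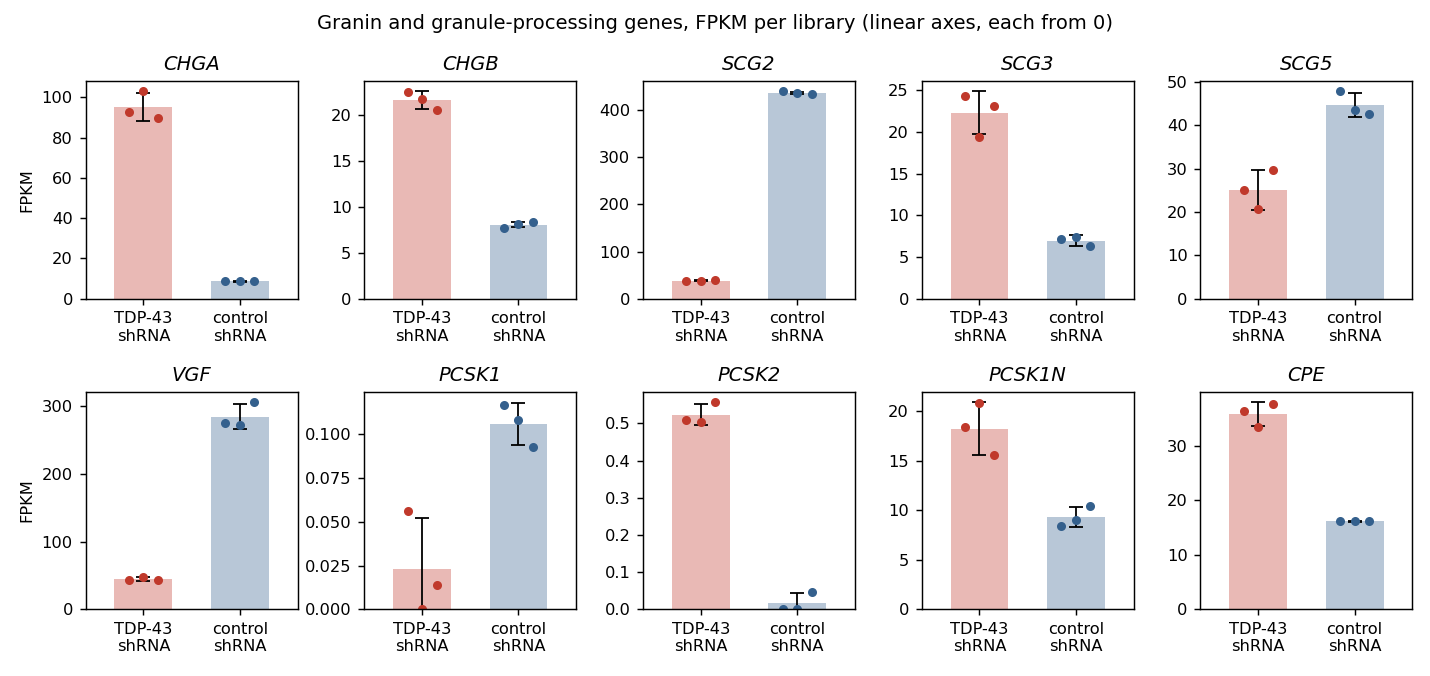
FPKM of each of the 10 genes (vertical axes, linear and each from 0) in the 3 TDP-43 shRNA and the 3 control shRNA libraries. Points are libraries, bars are means and error bars are SD. The groups do not overlap for any of the 10 genes, and PCSK1 and PCSK2 stay under 1 FPKM.

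CHGA encodes chromogranin A, the classical marker of neuroendocrine granules and a driver of granule formation in chromaffin cells. Its level was 92.55, 103 and 89.83 FPKM in the knockdown libraries, against 8.55, 8.74 and 8.61 FPKM in the control libraries. The lowest knockdown library lay about an order of magnitude above the highest control library. The mean was 95.1 ± 6.95 FPKM in the knockdown and 8.64 ± 0.0947 FPKM in the control (SD, n = 3 each), an 11-fold ratio, with a log2 fold change of 3.32 (standard error 0.057, limma adjusted p = 6.26e-10). Of 13434 tested genes 6 had a larger rise. CHGA (chromosome 14, 92923080 to 92935293, plus strand) was the most abundant of the 10 genes in the knockdown, while in the control its values overlapped those of PCSK1N.

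CHGB encodes chromogranin B, which aggregates with CHGA in the granule core and binds calcium. Its levels were 22.5, 21.7 and 20.6 FPKM in the knockdown libraries, against 7.75, 8.12 and 8.35 FPKM in the control libraries. It rose 2.68-fold (log2 fold change 1.32, standard error 0.056, limma adjusted p = 1.32e-07). Within a library the ratio of CHGA to CHGB, which does not depend on how a library is scaled, was 4.12, 4.74 and 4.36 in the knockdown and 1.10, 1.08 and 1.03 in the control. Chromogranin transcripts were therefore at nearly equal levels in control cells, and CHGA was the more abundant in knockdown cells. The mean log2 ratio differed by 2.04 (exact two-sided permutation p = 0.1, the smallest that 3 against 3 libraries allow, and 0.1 after adjustment over 6 ratios). The same p held for each of the ratios below.

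SCG2 encodes secretogranin II, the precursor of the peptide secretoneurin. It fell to 37.2, 38.0 and 39.2 FPKM in the knockdown libraries, against 439, 435 and 434 FPKM in the control libraries. Replicates within either group differed little, and the groups were far apart. The mean was 38.1 ± 1.03 FPKM in the knockdown and 436 ± 2.81 FPKM in the control (SD, n = 3 each), 11.4 times as much in the control (log2 fold change -3.48, standard error 0.0355, limma adjusted p = 4.03e-11). Of the tested genes 68 had a larger fall. SCG2 (chromosome 2, 223596940 to 223602503, minus strand) was the most abundant of the 10 genes in the control, where 134 tested genes had a higher mean FPKM, and in the knockdown 1411 genes did.

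VGF encodes a granin-like precursor of several bioactive peptides and is known as a gene induced by neurotrophins. It had 43.2, 48.2 and 42.6 FPKM in the knockdown libraries, against 274.5, 272.3 and 305.5 FPKM in the control libraries. The groups did not overlap. VGF (chromosome 7, 101162509 to 101165593, minus strand) fell by 2.64 on the log2 scale (standard error 0.0619, limma adjusted p = 3.44e-09), with a mean in the control 6.36 times that in the knockdown. The fall was smaller than that of SCG2, and the within-library ratio of SCG2 to VGF was 0.860, 0.788 and 0.920 in the knockdown against 1.6, 1.6 and 1.42 in the control. This ratio was added after the values were seen.

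SCG3 encodes secretogranin III, which tethers CHGA aggregates to the granule membrane. Its level was 24.3, 19.4 and 23.2 FPKM in the knockdown libraries, against 7.17, 7.45 and 6.28 FPKM in the control libraries. Knockdown library 2 was the lowest of its group and still far above every control library. SCG3 (chromosome 15, 51681353 to 51721031, plus strand) rose 3.20-fold (log2 fold change 1.54, standard error 0.0918, limma adjusted p = 1.09e-06). SCG3 and its partner CHGA thus rose together, CHGA the more.

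The granin transcripts were weighed against each other as shares of the summed FPKM of the 7 genes, which, being length-scaled, can be added across genes. Knockdown libraries summed to 265 ± 5.83 FPKM and control libraries to 798 ± 16.2 (SD, n = 3 each), a ratio of 0.332. CHGA made up 35.2%, 37.9% and 34.5% of the sum in the knockdown libraries and 1.08%, 1.11% and 1.06% in the control libraries. SCG2 made up 14.1%, 14.0% and 15.0% in the knockdown and 55.4%, 55.5% and 53.2% in the control. Together SCG2 and VGF accounted for 31.2% ± 0.615 of the granin sum in the knockdown and 90.3% ± 0.359 in the control. CHGB, SCG3 and PCSK1N held 8.14%, 8.43% and 6.87% on average in the knockdown, against 1.01%, 0.875% and 1.16% in the control. The share of SCG5 was 9.51% ± 1.92 in the knockdown and 5.60% ± 0.406 in the control, although its level fell. The pool was thus smaller in the knockdown and led by CHGA, and larger in the control and led by SCG2.

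**Figure D2:**
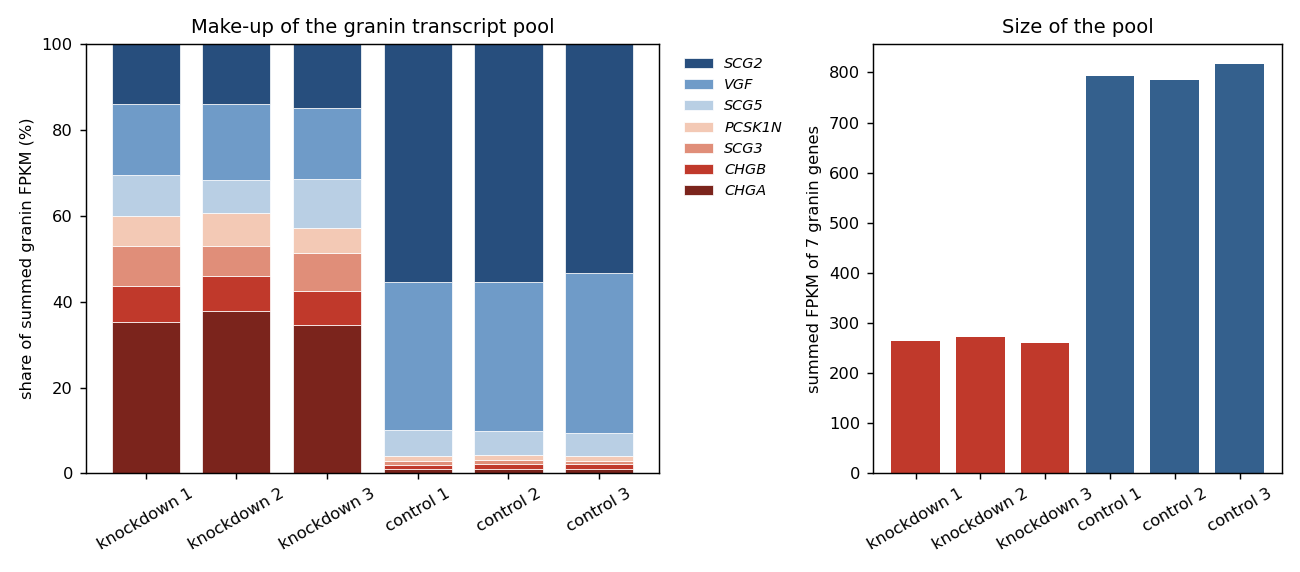
Left, the share of each granin gene in the summed FPKM of the 7 genes (percent, stacked) for each library. Right, the sum itself (FPKM). CHGA takes 34.5% to 37.9% in the knockdown libraries and about 1% in the control libraries, and the sums are 260.7 to 271.8 FPKM in the knockdown against 784.3 to 815.9 FPKM in the control.

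The scaling-free ratios carried the same contrast. The ratio of CHGA to SCG2 was 2.49, 2.71 and 2.29 in the knockdown and 0.0195, 0.0201 and 0.0198 in the control, a 126-fold difference. For CHGB to SCG2 it was 0.605, 0.572 and 0.525 in the knockdown against 0.0176, 0.0187 and 0.0192 in the control, a 30.6-fold difference. The ratio of CHGA to VGF, added after the values were seen, was 2.14, 2.14 and 2.11 in the knockdown and 0.0312, 0.0321 and 0.0282 in the control, a 69.9-fold difference. For each ratio the knockdown libraries lay wholly apart from the control libraries.

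The convertases themselves were low, with every library under 1 FPKM for both, and PCSK2 was listed at 0 in 2 of the 3 control libraries. PCSK1, the convertase of the early secretory granule, had listed values of 0.0560, 0 and 0.0138 FPKM in the knockdown, against 0.117, 0.108 and 0.0925 FPKM in the control. Scaled by relative depth, these values were 3.00, 0 and 1.00 times the smallest non-zero one in the knockdown and 8.98, 7.97 and 6.00 times it in the control. PCSK2, which cuts many neuropeptide precursors, had listed values of 0.509, 0.504 and 0.556 FPKM in the knockdown, against 0, 0 and 0.0479 FPKM in the control. On the same depth-adjusted scale they were 8.81, 6.62 and 13.0 times the smallest non-zero one in the knockdown, and 0, 0 and 1.00 times it in the control. The groups did not overlap for either gene, but both lay below the filter and were not tested in the main fit. An exact 0 in this table can also be a failed estimate. With no filter on low values PCSK1 had a log2 difference of -0.11 (limma adjusted p = 0.0223) and PCSK2 one of 0.58 (limma adjusted p = 0.000152), on a scale where 1 FPKM is added and low genes are compressed. The planned ratios that involve a convertase were not computed, since each had a value of 0 in some library.

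Transcripts for the proteins that restrain or assist the convertases were present and moved in opposite directions. PCSK1N encodes proSAAS, an inhibitor of PCSK1. It had 18.4, 20.9 and 15.5 FPKM in the knockdown libraries, against 8.43, 9.03 and 10.4 FPKM in the control libraries. PCSK1N (chromosome X, 48831094 to 48835633, minus strand) rose 1.97-fold (log2 fold change 0.90, standard error 0.109, limma adjusted p = 0.000103). This call was lost with columns rescaled to equal sums (log2 fold change 0.06, adjusted p = 0.647), a scaling that moved the median of all genes to -0.82. SCG5 encodes a chaperone that PCSK2 needs for its maturation. Its level was 25.1, 20.6 and 29.7 FPKM in the knockdown libraries, against 47.8, 43.7 and 42.6 FPKM in the control libraries. The knockdown libraries were all lower and also more spread. SCG5 (chromosome 15, 32641676 to 32697098, plus strand) fell by 0.82 on the log2 scale (standard error 0.114, limma adjusted p = 0.000252), the smallest change among the 8 tested genes. PCSK2 transcripts were detected with those of SCG5 in the knockdown, and SCG5 was at 44.7 ± 2.78 FPKM in control libraries where PCSK2 was at or near 0.

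CPE removes the basic residues that convertases leave behind and was also described as a sorting receptor. It had 36.5, 33.5 and 37.7 FPKM in the knockdown libraries, against 16.3, 16.2 and 16.2 FPKM in the control libraries. All control values were nearly equal, and each knockdown value was above all of them. CPE (chromosome 4, 165361194 to 165498320, plus strand) rose 2.21-fold (log2 fold change 1.10, standard error 0.0535, limma adjusted p = 3.04e-07). Set in order of mean level, the knockdown ran CHGA, VGF, SCG2, CPE, SCG5, SCG3, CHGB, PCSK1N, PCSK2 and PCSK1. Library values of neighbours overlapped for SCG2 and CPE, SCG5 and SCG3, SCG3 and CHGB, and CHGB and PCSK1N. The control ran SCG2, VGF, SCG5, CPE, PCSK1N, CHGA, CHGB, SCG3, PCSK1 and PCSK2, and there only PCSK1N and CHGA overlapped.

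The deposited columns do not share a sum, so directions were checked under other scalings. With quantile normalization, with columns rescaled to equal sums without 6 small RNAs and with median-of-ratios rescaling, all 8 tested members kept their direction and call. With columns rescaled to equal sums the log2 fold changes ranged from 2.46 for CHGA to -4.37 for SCG2, and 7 of the 8 members kept their call. CHGB, SCG3 and CPE then rose by 0.48, 0.72 and 0.23. Measured from the all-gene median of that scaling, they stood 1.30, 1.54 and 1.05 above it. Over all genes the calls were 4092 higher and 4817 lower on the deposited scale, 5390 and 3769 with quantile normalization, and 505 and 11840 with equal sums.

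**Figure D3:**
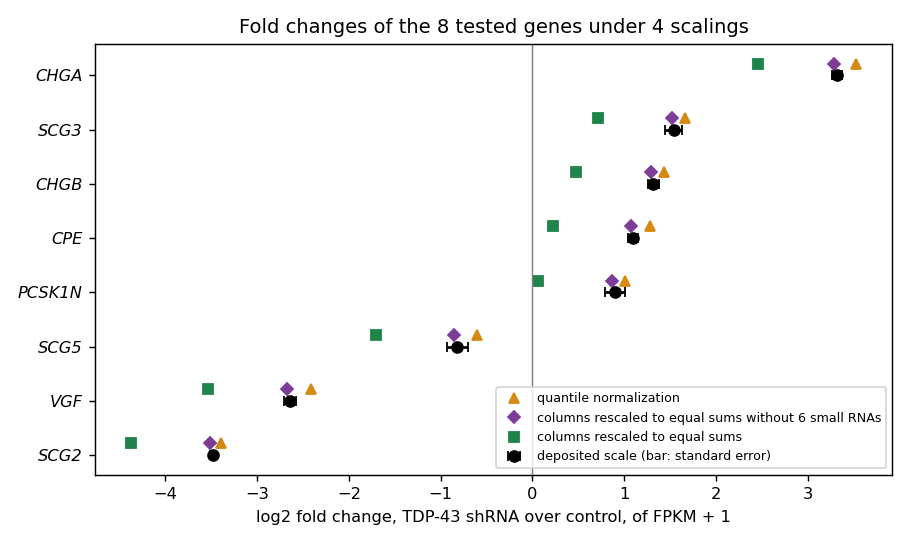
Log2 fold change (TDP-43 shRNA over control, of FPKM + 1) of the 8 tested genes on the deposited scale, with its standard error, and under 3 other scalings. CHGA and SCG2 lie at opposite ends under each, and PCSK1N reaches 0.06 with columns rescaled to equal sums.

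Transcripts of most of the other prohormone-processing enzymes that passed the filter fell. Of 13 listed, 7 passed the filter, 0 rose and 5 fell by limma, with a median log2 fold change of -0.45. At an unadjusted p under 0.05, and by limma without trend or with robust estimation, the counts were likewise 0 higher and 5 lower. The share called was 71.4%, against 66.3% over all tested genes, of which 30.5% were higher and 35.9% lower. PCSK6 lay under the filter and was not tested. It had 1.19 ± 0.183 FPKM in the knockdown, against 0.653 ± 0.197 in the control, with groups that did not overlap. PAM, which amidates the ends of peptides, fell to 15.6 ± 1.42 FPKM in knockdown cells, against 78.2 ± 1.80 in control cells (SD, n = 3 each; log2 fold change -2.26, limma adjusted p = 1.03e-08). FURIN, a convertase of the constitutive secretory pathway, fell to 4.88 ± 0.158 FPKM, against 22.8 ± 0.979 in the control. CTSL, a cysteine protease that also cuts prohormones, fell to 12.3 ± 1.39 FPKM, against 25.0 ± 1.54 in the control. CPD, a carboxypeptidase of the trans-Golgi network, and PCSK7, another convertase, fell by 0.45 and 0.26. PCSK7 lost its call in 6 of 18 alternatives, with quantile normalization (log2 fold change -0.15, adjusted p = 0.195), with no filter on low values, and without knockdown library 1 or 3 or control library 2 or 3. QPCTL and MBTPS1 did not pass, with log2 fold changes of 0.20 and 0.09. MBTPS1 passed as higher with quantile normalization (0.31), with median-of-ratios rescaling and without knockdown library 2, and both were lower with columns rescaled to equal sums (-0.45 for QPCTL and -0.79 for MBTPS1). CPE and PAM act in turn on the same peptide ends, and the ratio of CPE to PAM, added after the values were seen, was 2.33, 2.37 and 2.22 in the knockdown against 0.205, 0.205 and 0.212 in the control.

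Peptide cargo was mostly at or near 0. Of 27 prohormone and neuropeptide genes 9 passed the filter, 2 rose and 6 fell (median -0.58). The share called was 88.9%, against 66.3% over all tested genes. NPY and VIP, neuropeptides of sympathetic neurons, had 24.9 ± 0.957 and 16.9 ± 2.89 FPKM in the knockdown, against 428 ± 20.7 and 441 ± 18.3 FPKM in the control. In the control they were thus at the level of SCG2, and they fell by 4.05 and fell by 4.64 on the log2 scale, SCG2 by less. BDNF, a neurotrophin stored in granules, fell to 0.668 ± 0.110 FPKM, against 5.00 ± 0.553 in the control, and CALCB, NMB and NMU fell by 0.61, 0.58 and 0.58, NMU not passing with no filter on low values. ADM, adrenomedullin, rose to 18.0 ± 1.26 FPKM, against 6.21 ± 0.472 in the control. GAL, galanin, rose by 0.26, a direction that turned with columns rescaled to equal sums (-0.61). UCN did not pass (2.00 ± 0.261 FPKM in the knockdown, against 1.12 ± 0.808 in the control), but did without control library 1 (adjusted p = 0.0309).

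Genes of granule biogenesis and sorting were split. Of 17 tested, 8 rose and 4 fell, with a median of 0.12. The share called, 70.6%, was near the 66.3% over all tested genes, so this count says little by itself. ICA1, a protein of immature granules, rose to 86.7 ± 2.74 FPKM, against 14.6 ± 0.664 in the control (SD, n = 3 each; log2 fold change 2.50, limma adjusted p = 1.28e-09). Genes of the related granule membrane proteins PTPRN and PTPRN2 moved apart. PTPRN fell to 6.60 ± 0.505 FPKM in the knockdown, against 16.1 ± 0.245 in the control, and PTPRN2 rose to 5.80 ± 0.0157, against 2.52 ± 0.215 in the control. HID1, needed for granule maturation, rose by 0.80, a call lost with columns rescaled to equal sums (log2 fold change 0.15, adjusted p = 0.251). RAB2A, ARFIP1 and RUNDC1 were the others that fell, by 0.47, 0.24 and 0.16, and the last of these lay at the threshold (adjusted p = 0.05). RUNDC1 missed it in 13 of 18 alternatives, among them 5 of the 6 that leave out a library, so that 3 genes fell in most of them. ARFIP1 did not pass with quantile normalization. With equal sums 2 genes rose and 13 fell.

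Genes of docking and exocytosis were also split, with 10 of 21 tested higher, 9 lower and a median of 0.14. The share called was 90.5%, against 66.3% over all tested genes. RAB3B, a small GTPase of secretory vesicles, fell to 1.15 ± 0.0476 FPKM, against 11.8 ± 0.368 in the control. SYTL5, a synaptotagmin-like protein, fell to 0.0227 ± 0.0213 FPKM, against 2.83 ± 0.355 in the control. SYT4, a synaptotagmin, fell to 37.5 ± 3.79 FPKM, against 116 ± 3.07 in the control. RPH3A, a Rab3 effector, rose to 13.0 ± 0.729 FPKM, against 3.47 ± 0.162 in the control. For these 4 genes limma gave adjusted p-values between 5.44e-09 and 5.45e-07. With equal sums 3 genes rose and 15 fell. Of 12 genes of the V-ATPase, the proton pump that acidifies granules and other compartments, 10 fell and 0 rose by limma (median -0.42). At an unadjusted p under 0.05, and by limma without trend or with robust estimation, they were likewise 0 higher and 10 lower. Over all tested genes 30.5% were higher and 35.9% lower. ATP6AP2, an accessory subunit, fell by 1.03, and ATP6V1D, ATP6V0D1 and ATP6V1E1 fell by 0.78, 0.69 and 0.66. ATP6V1A and ATP6V1B2 did not pass, and ATP6V1B2 passed as higher with quantile normalization (0.25) and as lower with columns rescaled to equal sums (-0.77).

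**Figure D4:**
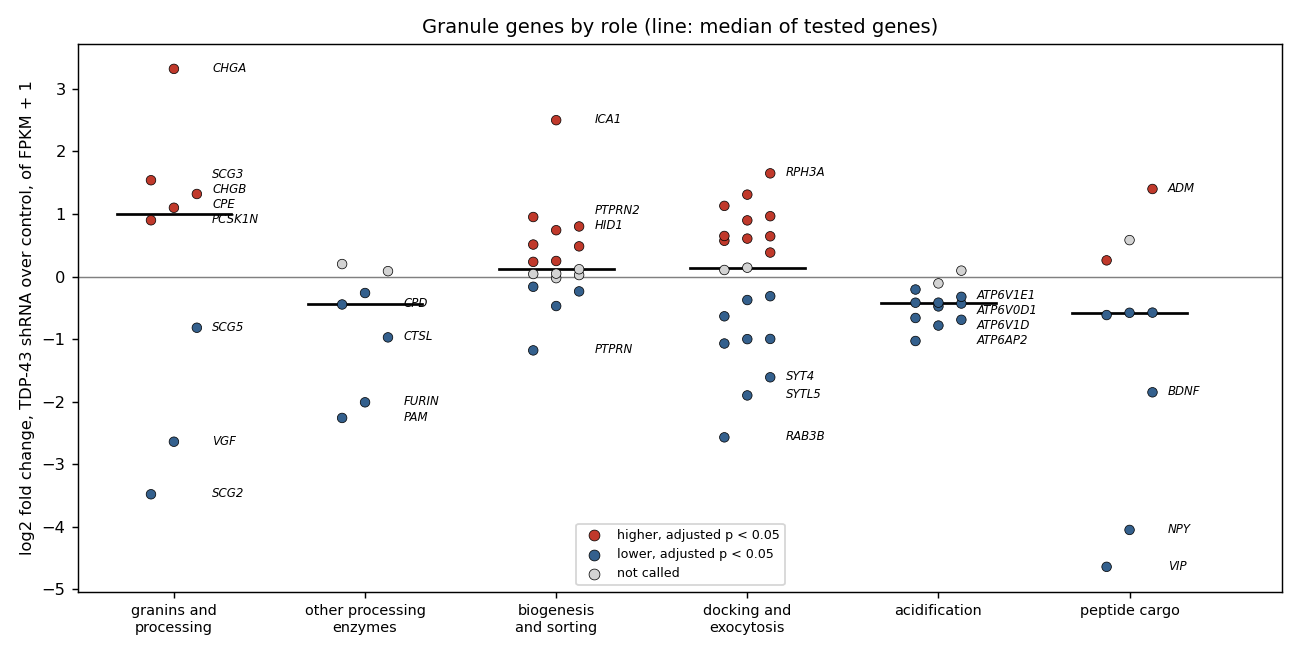
Log2 fold change (TDP-43 shRNA over control, of FPKM + 1) of tested genes grouped by role in the granule pathway. Each point is a gene and the line is the median of the group. It is 1.00 for the granins and processing genes, -0.45 for other processing enzymes and -0.42 for acidification. Of the 8 granins and processing genes 5 rose and 3 fell, so their median describes no common shift.

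Among regulators of neuroendocrine transcription, 9 of 18 tested genes rose and 5 fell, with a median of 0.13 (3 and 15 with columns rescaled to equal sums). The share called was 77.8%, against 66.3% over all tested genes. INSM2 rose to 8.78 ± 0.313 FPKM, against 0.602 ± 0.166 in the control (SD, n = 3 each). RCOR2, a corepressor, rose to 12.1 ± 0.384 FPKM, against 4.46 ± 0.233 in the control. REST, which represses neuronal genes including several granins in other cells, fell to 17.4 ± 1.5 FPKM, against 26.9 ± 0.337 in the control. CREM and ATF1, both of the CREB family that binds the CRE, fell to 5.78 ± 1.77 and 4.44 ± 0.380 FPKM, against 14.5 ± 0.410 and 8.54 ± 0.620 in the control. CREB1, the family's namesake, did not pass (13.2 ± 1.68 FPKM in the knockdown, against 14.3 ± 0.673 in the control; log2 fold change -0.12, limma adjusted p = 0.266). The CREB coactivators were split, with CRTC1 and CRTC2 higher by 0.41 and 0.33 and CRTC3 lower (-0.37), and CRTC1 and CRTC2 were lower with columns rescaled to equal sums. CRTC2 did not pass with no filter on low values. HDAC1, a histone deacetylase, fell by 0.24 and did not pass with quantile normalization (-0.03).

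The genes with the profile most like CHGA over the 6 libraries, by Euclidean distance of centred log2(FPKM + 1) values, were DPT (distance 0.286), NELL1 (0.308) and KIAA1324 (0.336), which had 11.6 ± 0.203, 13.7 ± 1.07 and 13.2 ± 0.323 FPKM in the knockdown, against 0.103 ± 0.0356, 0.430 ± 0.0662 and 0.218 ± 0.0275 in the control. For SCG2 they were FLNC (0.0553), CAV1 (0.0740) and TUBB6 (0.0980). FLNC and TUBB6 stood at 3.64 ± 0.187 and 3.67 ± 0.132 FPKM in knockdown cells, against 50.9 ± 1.06 and 48.5 ± 0.489 FPKM in control cells, and CAV1 was listed at 0 in every knockdown library. With 6 libraries in 2 groups, this distance mainly matches the size of the group difference.

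The 10 genes are scattered over the genome, with SCG3 and SCG5 on chromosome 15 and CHGB and PCSK2 on chromosome 20. Of the 16 nearest tested genes on either side of the 8 tested members, 7 were called in the member's direction, 3 in the opposite direction and 6 were not called, where 66.3% of all tested genes were called. With columns rescaled to equal sums all 16 were lower, 6 of them in the member's direction. ITPK1, 1.62 kb from CHGA, had 9.83 ± 0.161 FPKM in knockdown cells, against 9.63 ± 0.363 in control cells, and GOLGA5 on the other side had 14.3 ± 0.374 FPKM in knockdown cells, against 15.4 ± 0.361 in control cells. Neither passed the threshold, but GOLGA5 passed as lower with columns rescaled to equal sums without 6 small RNAs (adjusted p = 0.0322). SCG5 lay beside GREM1, a secreted BMP antagonist, which fell to 23.9 ± 1.45 FPKM, against 216 ± 4.49 in the control, and beside ARHGAP11A, which fell by 0.87. AP1S3 and ACSL3 on either side of SCG2, 149 and 652 kb away, fell by 1.70 and 0.43. AP1S1, 0.913 kb from VGF, encodes an adaptor subunit of the trans-Golgi network and fell to 51.3 ± 3.15 FPKM, against 105 ± 4.90 in the control, while NAT16 on the other side did not pass (0.08).

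UG repeats, to which TDP-43 is known to bind, were counted in the spliced reference transcripts, a description added after the values were seen. The hexamer TGTGTG occurred in 70.8% of 11812 tested genes with a protein-coding transcript in GENCODE, where the median transcript length was 3499 bases. It occurred 0 times in CHGA, CHGB, SCG3, SCG5, PCSK1N and CPE, 1 time each in SCG2 and VGF, 4 times in PCSK1 and 6 times in PCSK2. The member transcripts, of 1050 to 5086 bases, differ in length, introns were not searched, and gene-level FPKM does not show splicing. All members but PCSK1 and PCSK2 had transcripts shorter than that median, and a shorter transcript has fewer places for a match.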

How the data were processed

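The data are RNA-seq of 6 libraries from SH-SY5Y cells, made from poly(A) RNA with a kit that keeps strand, per the labels' protocols. FPKM values are the authors' own, deposited as 1 gene by library matrix. The submitters' processing notes name TopHat2 2.1.0, SAMtools, Cuffdiff 2.2.1 and the build hg38, without saying what each did. Annotation and strand setting are not given, so fragments of a gene and of a gene overlapping it cannot be told apart; opposite-strand genes overlap SCG3, SCG5, PCSK1, PCSK2 and CPE. Titles gave the groups. Column sums span 1183000 to 2450000 FPKM. Relative depth was read from ratios of values below 0.3 FPKM.

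The test was limma 3.58.1 (R 4.3.3) on log2(FPKM + 1), a scale that understates changes of low genes. It used an intensity trend and was two-sided, with Benjamini-Hochberg adjustment over the 13434 genes averaging at least 1 FPKM. A check on simulated data changed far fewer genes than were called here and gave each gene the same spread in both groups. In these data the median SD of log2 values was 0.0932 in the knockdown and 0.0606 in the control. That check therefore says little about this setting. Ratios used exact permutation tests (Python 3.11.15). Positions are from GENCODE 29 (GRCh38). Members and lists were chosen with earlier results of these data known. The rule named TARDBP, the members, per list up to 4 called genes of largest change whose groups did not overlap, the 3 profiles closest to CHGA and to SCG2, nearest tested neighbours, and genes of counts of 5 or fewer. Not all are described, and 1 gene that the rule named is not reported here. Genes named that missed the threshold were chosen after their values were seen.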

Additional observations from a re-analysis of the deposited data

How the results depend on the processing

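Each of 18 alternatives was run: pseudocounts of 0.1 and 0.5, minimum means of 0.1 and 5 FPKM or none, 4 other scalings, a replicate block, limma with no trend or a robust prior, and each library dropped in turn. For the 8 tested members 143 of 144 values kept their direction and side of the threshold. The exception was PCSK1N with columns rescaled to equal sums (0.06, against 0.90). That scaling gave 505 genes higher and 11840 lower over all genes, 2 and 13 for biogenesis, 3 and 15 for exocytosis, 3 and 15 for regulators, and 1 cargo gene higher, since it moves the median of all genes to -0.82. The 6 small RNAs left out of the sums in another scaling were SNORD3A, RN7SK, RN7SL1, RN7SL2, RMRP and RPPH1. With equal sums without them, the median of all genes was -0.05, and 3781 genes were higher and 5156 lower. Quantile normalization gave 2 biogenesis genes lower, 1 acidification gene higher and 1 processing gene higher. A processing gene (count 1) was also higher with median-of-ratios rescaling and at a minimum mean of 0.1 FPKM, and leaving out single libraries gave 0 to 1, with 1 without knockdown library 2. At a minimum mean of 5 FPKM, with fewer genes tested, 3 cargo genes were lower. With a pseudocount of 1 FPKM in both terms the log2 ratios were 6.80 for CHGA to SCG2, 4.80 for CHGB to SCG2, 5.96 for CHGA to VGF and 3.36 for CPE to PAM.

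Same-numbered libraries did not deviate together (correlations of deviations -0.018, -0.18 and -0.091). This cannot exclude that they were handled together, and the main fit assumed no pairing. With the replicate block 3894 genes were higher and 4667 lower, the members stayed at 5 and 3, and UCN passed as higher (adjusted p = 0.0308). Absolute depth is unknown, which limits what can be said of PCSK1 and PCSK2.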
